A study of Canis lupus familiaris with 4 samples.

Results

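Chemokine receptors were read in canine mammary tumours through 4 probes, 1 each for CCR1, CCR3, CCR4 and CXCR2, of 43603 probes on the array, of which those of 1045 genes could be named. A probe belonged to the set when its transcript accession matched a dog RefSeq mRNA of the receptor gene (RefSeq gene table, assembly UU_Cfam_GSD_1.0; CXCR2 was formerly IL8RB). The accessions were NM_001038606 for CCR1, NM_001005261 for CCR3, NM_001003020 for CCR4 and NM_001003151 for CXCR2. A further gene of the set, CXCR4, was not analysed here, so 4 of 5 genes have values. The study set RNA labelled as tumours of grade 3, the most malignant, against RNA labelled as tumours of grade 1 on 4 Agilent arrays with a colour for each grade. Grade 3 was in Cy5 and grade 1 in Cy3 on 2 arrays, called forward arrays 1 and 2 here, and the dyes were exchanged on the other 2, called reverse arrays 1 and 2, the numbers being the labels' replicate numbers. The labels give no animal, breed, age or treatment for either grade and do not say whether animals were pooled. Their protocols speak of cancer cells kept with monocytes for at least 72 h, then sorted into cancer cells and macrophages, and they do not say which of these was hybridised. All arrays lay on 1 slide, and nothing says that they came from separate animals, so p-values measure only the spread between arrays, which may be technical.

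Chemokine receptors are G protein-coupled receptors of the cell surface that steer cells along gradients of small secreted proteins, the chemokines. CCR1 is carried mainly by monocytes, macrophages and neutrophils. CXCR2 is the neutrophil receptor for CXCL8 and related chemokines. CCR4 is known from Th2 and regulatory T cells and CCR3 from eosinophils and basophils. In tumours such receptors are best known for drawing in leukocytes, though cancer cells can carry some of them too.

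All 4 receptor probes were called lower in grade 3 (limma adjusted p under 0.05), by 1.09-fold to 1.28-fold. Among all 35411 tested probes 30.5% were called lower and 31.1% higher (61.6% either way), and among 925 named genes 46.1% were called lower and 24.1% higher. The order from the largest to the smallest difference was CCR1, CXCR2, CCR4 and CCR3, though CCR4 and CCR3 changed places under some settings. Each of the differences lay between the 5th percentile (-0.64) and the 95th (0.61) of the log2 fold changes of all tested probes, whose median was 0.0045. The differences hold relative to the other probes of the same array, after normalization. Signal over background, taken before normalization, was higher in grade 3 for all 4 receptors on both reverse arrays. It was lower in grade 3 for all 4 on forward array 2, and on forward array 1 for CCR1 only. With arrays scaled to the spike-in control spots, the median of all probes moved to 0.53 and of the 4 receptors only CCR1 stayed below 0 (-0.0040), while CXCR2 had 0.095, CCR3 0.17 and CCR4 0.23. Relative to that median the values were -0.53 for CCR1, -0.44 for CXCR2, -0.36 for CCR3 and -0.30 for CCR4. In bulk RNA, fewer cells of a type and less RNA per cell cannot be told apart.

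**Figure D1:**
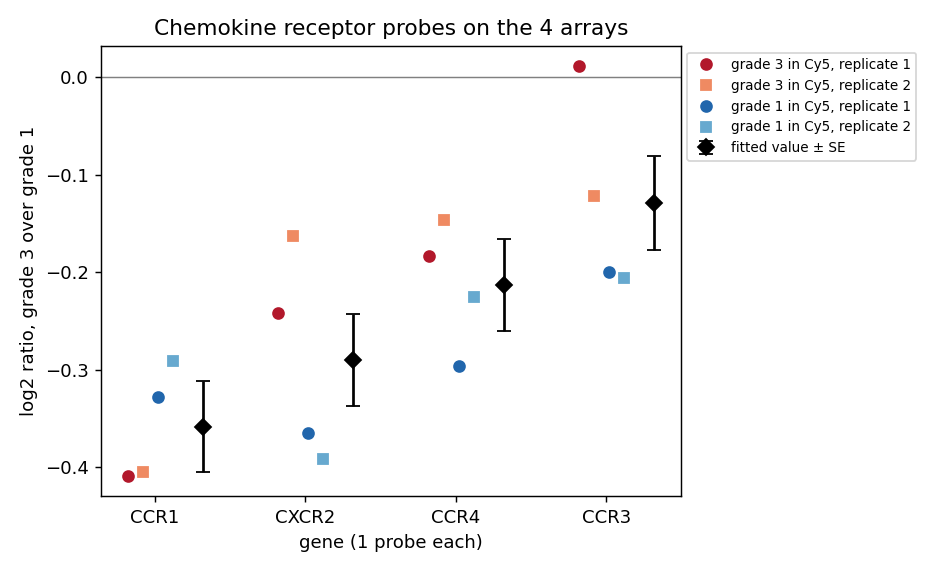
Log2 ratio of grade 3 over grade 1 (vertical axis) for the 4 receptor probes on each array, with the fitted log2 fold change and its moderated SE as a black diamond. CCR1 lies between -0.41 and -0.29, while CCR3 reaches 0.01 on forward array 1; with spike-in scaling the fitted values of CXCR2, CCR4 and CCR3 lie above 0.

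CCR1, a receptor for inflammatory CC chemokines, differed most. Its log2 ratio of grade 3 over grade 1 was -0.41 and -0.40 on forward arrays 1 and 2, and -0.33 and -0.29 on reverse arrays 1 and 2. It was below 0 on every array, as were CXCR2, CCR4 and 28.3% of all tested probes. The fit gave a 1.28-fold lower signal in grade 3 (95% interval 1.19 to 1.38, n = 4 arrays). That is a log2 fold change of -0.36 ± 0.05 (SE), with a limma adjusted p of 9.75e-05. The level, a normalized single-channel log2 intensity, was 6.69 ± 0.12 (SD, n = 4) in grade 3 and 7.05 ± 0.07 in grade 1. All grade 3 levels lay below all grade 1 levels, as they did for 21.3% of tested probes. Signal over local background was 2.81, 1.91, 3.55 and 4.65 in grade 3 and 3.31, 2.96, 3.09 and 3.19 in grade 1, in the order forward 1, forward 2, reverse 1, reverse 2. The grade 3 readings thus varied more between arrays than those of grade 1.

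CXCR2, the neutrophil receptor, came next. Its log2 ratios were -0.24 and -0.16 on the forward arrays and -0.36 and -0.39 on the reverse arrays. Every array lay below 0, and the reverse arrays lay lowest. The signal was 1.22-fold lower in grade 3 (95% interval 1.14 to 1.32, n = 4 arrays), a log2 fold change of -0.29 ± 0.05 (SE, limma adjusted p = 0.000442). Its level was 6.90 ± 0.05 (SD, n = 4) in grade 3 and 7.19 ± 0.09 in grade 1, without overlap between the grades. Signal over background, in the same order of arrays, was 3.05, 2.74, 3.88 and 3.61 in grade 3 and 2.88, 3.24, 3.42 and 2.77 in grade 1. The only outlier mark on a receptor's local background fell on the grade 1 channel of CXCR2 on reverse array 2, where the background read 47 units and was replaced by the median of its channel.

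CCR4, the receptor for CCL17 and CCL22, was the brightest of the 4 probes over its background. Its log2 ratios were -0.18 and -0.15 on the forward arrays and -0.30 and -0.23 on the reverse arrays, again all below 0. The signal was 1.16-fold lower in grade 3 (95% interval 1.08 to 1.25, n = 4 arrays), a log2 fold change of -0.21 ± 0.05 (SE, limma adjusted p = 0.00299). The level was 7.32 ± 0.06 (SD, n = 4) in grade 3 and 7.53 ± 0.09 in grade 1. The grades did not overlap, although the highest grade 3 level, 7.39 on forward array 1, was close to the lowest grade 1 level, 7.46 on forward array 2. Signal over background was 4.43, 3.83, 5.02 and 5.30 in grade 3 and 3.75, 3.92, 4.29 and 3.88 in grade 1.

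CCR3, the eotaxin receptor of eosinophils, differed least under the setting used in the text, and its call was the least stable. Its log2 ratio was 0.01 on forward array 1, -0.12 on forward array 2, -0.20 on reverse array 1 and -0.21 on reverse array 2. Thus 3 of 4 arrays lay below 0, and the grades overlapped: the level was 6.52 ± 0.09 (SD, n = 4) in grade 3 and 6.64 ± 0.03 in grade 1. The fit gave a 1.09-fold lower signal (95% interval 1.01 to 1.18, n = 4 arrays), a log2 fold change of -0.13 ± 0.05 (SE, limma adjusted p = 0.0415). The call was lost without forward array 2 (-0.096, adjusted p = 0.134), without reverse array 1 (-0.13, adjusted p = 0.146) and without reverse array 2 (-0.13, adjusted p = 0.157). Without forward array 1 it stayed (-0.16, limma adjusted p = 0.0211). With the replicate number as a block the adjusted p was 0.0587, without a dye term 0.132, and without the filter on dim probes 0.0519. Signal over background was 2.45, 1.94, 2.38 and 3 in grade 3 and 1.97, 2.16, 1.88 and 2.13 in grade 1, where it was the lowest of the 4 genes.

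**Figure D2:**
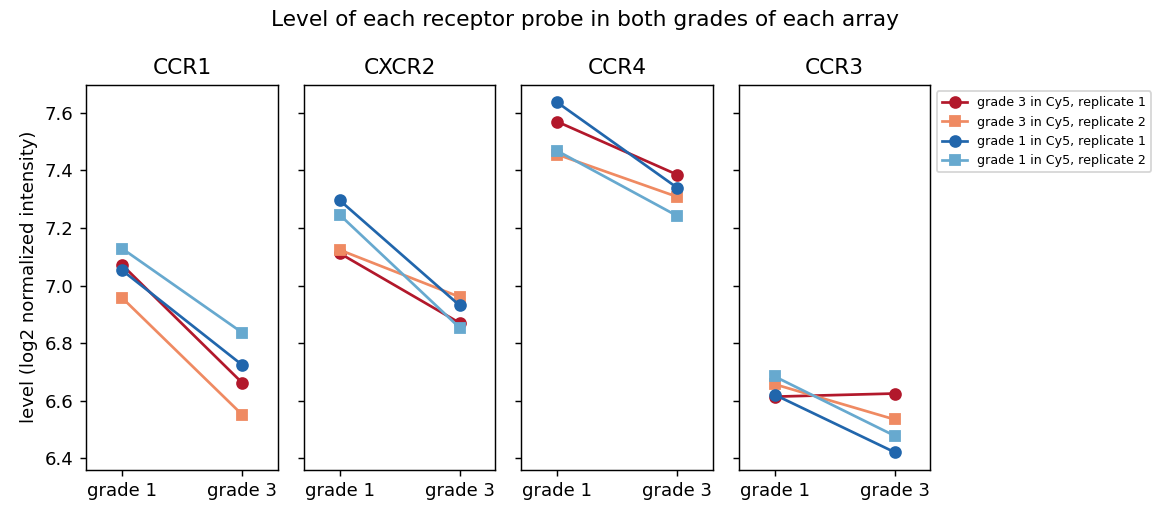
Level of each receptor probe (vertical axis, normalized log2 intensity) in grade 1 and grade 3, with 1 line per array joining its 2 channels. Lines fall on every array for CCR1, CXCR2 and CCR4, and on 3 of 4 arrays for CCR3; with spike-in scaling the fitted values of CXCR2, CCR4 and CCR3 turn upward. Levels of different probes cannot be compared, since probes differ in how strongly they bind.

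The 4 probes were dim. All 32 readings (4 probes, 4 arrays, both channels) were well above background by the scanner software's own test, yet signals were only 1.88 to 5.30 times the local background. Over all probes the median of that ratio was 6.90 to 12.7, depending on array and channel. By level the receptors stood at the 8.04th (CCR3), 14.9th (CCR1), 18.4th (CXCR2) and 25.1st (CCR4) percentile of the tested probes. The correction adds 50 intensity units to every signal, which draws the ratios of dim probes toward 0. With no such offset the log2 fold changes were -0.64 for CCR1, -0.47 for CXCR2, -0.31 for CCR4 and -0.28 for CCR3. With the authors' processed signals they were -0.86, -0.54, -0.39 and -0.47, which put CCR3 below CCR4. These settings kept all 4 calls, with limma adjusted p values between 0.000179 and 0.0127.

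The treatment of local backgrounds changed the calls. On forward array 2 a few local backgrounds reached 309565 intensity units in Cy5, and on reverse array 1 they reached 21363 in Cy3, against medians of 41 and 30.5. Backgrounds that the scanner software had marked as outliers were replaced here by their channel's median on that array. With backgrounds left as measured, none of the 4 receptors was called: CCR1 had -0.18 (limma adjusted p = 0.184), CXCR2 -0.14 (0.185), CCR4 -0.11 (0.220) and CCR3 -0.043 (0.596). On forward array 2 the ratios under that setting ran from -0.015 for CCR1 to -0.0047 for CCR3, and on reverse array 1 from -0.083 for CCR4 to -0.030 for CCR3. On reverse array 2 they were -0.23 for CCR1, -0.25 for CXCR2, -0.18 for CCR4 and -0.16 for CCR3. On forward array 1 they were -0.40 for CCR1, -0.23 for CXCR2, -0.18 for CCR4 and 0.019 for CCR3, each within 0.01 of the values above. Leaving out forward array 2 as well gave CCR1 -0.27 (limma adjusted p = 0.0256), CXCR2 -0.20 (0.0572), CCR4 -0.16 (0.0776) and CCR3 -0.037 (0.624).

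**Figure D3:**
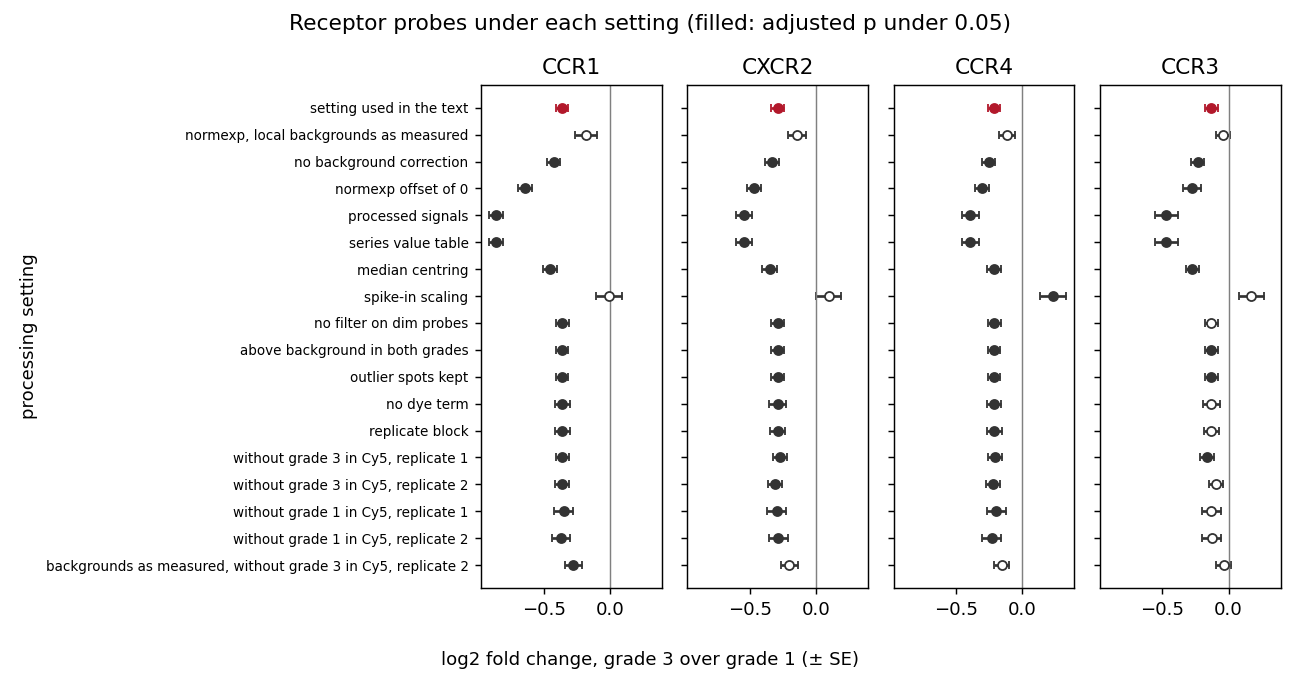
Fitted log2 fold change of each receptor probe (horizontal axis, ± SE) under the setting used in the text (red) and 17 alternatives, filled where the limma adjusted p is under 0.05. CCR1 is below 0 under all of them and called under 15; CCR3 is called under 8, and spike-in scaling moves CXCR2, CCR4 and CCR3 above 0.

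The probes also differed in how far the dye mattered. The fitted dye term was -0.049 on the log2 scale for CCR1, 0.048 for CCR4, 0.073 for CCR3 and 0.088 for CXCR2. CCR1 therefore had its more negative ratios on the forward arrays (mean -0.41 against -0.31), whereas CXCR2 (-0.20 against -0.38), CCR4 (-0.17 against -0.26) and CCR3 (-0.06 against -0.20) had theirs on the reverse arrays. Without a dye term the calls of CCR1, CXCR2 and CCR4 stayed, with limma adjusted p of 0.00228, 0.00948 and 0.0199.

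Of the 6 pairs of receptors, only CCR1 and CCR3 had ratios that did not overlap over the 4 arrays. CCR1 lay below CCR3 on every array, with a mean difference of -0.23 ± 0.15 (SD, n = 4). CCR1 lay below CCR4 on every array as well, with differences from -0.26 to -0.03, and CCR4 above CXCR2 by 0.02 to 0.17. CCR1 and CXCR2, neighbours in the order, changed places between arrays: CCR1 was lower on 2 arrays and CXCR2 on the other 2. CCR3 lay above CCR4 on every array, by 0.02 to 0.19. Its fitted value lay below that of CCR4 with median centring (-0.27 against -0.21) and spike-in scaling (0.17 against 0.23). The same held with processed signals (-0.47 against -0.39). These differences between receptors were not tested. CCR3 and CCR1 follow each other directly in the gene table, and CXCR2 is followed there by CXCR1. Related receptors of such clusters can share sequence, and whether a probe also reads a neighbour was not tested.

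Several ligands of these receptors had larger differences than the receptors. The offset draws the ratios of the dim receptors toward 0 more than those of bright ligands. The sizes of receptor and ligand differences are therefore not directly comparable. Of 22 listed ligands of these 4 genes, 9 were tested, 7 of them lower, 1 higher and 1 without a call. Among all named genes 46.1% were called lower and 24.1% higher. The median log2 fold change of the 9 ligands was -0.89 against -0.09 for all named genes. With spike-in scaling that median was -0.19, and with backgrounds as measured 4 were called lower and none higher.

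For CXCR2 the only tested ligand was CXCL8, a neutrophil attractant. All 4 of its probes were called lower, with log2 fold changes from -5.69 to -4.95, and the ratios of the brightest were -5.09, -4.74, -4.97 and -5.01 on forward arrays 1 and 2 and reverse arrays 1 and 2. CXCR2 itself was 1.22-fold lower, and CXCL8 31.0-fold (limma adjusted p = 3.90e-11). For CCR4 the tested ligand was CCL17, an attractant of Th2 and regulatory T cells, whose ratios were -1.04, -1.17, -1.04 and -1.12. CCL17 was thus 2.13-fold lower (limma adjusted p = 8.24e-08) where its receptor was 1.16-fold lower. With no offset the log2 fold changes were -0.47 for CXCR2 and -4.99 for CXCL8, and -0.31 for CCR4 and -1.26 for CCL17.

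CCR1 had 5 tested ligands, of which 4 were called lower. CCL7, a monocyte attractant that also binds CCR3, had a log2 fold change of -1.81 ± 0.05, CCL8 -0.97 ± 0.05 and CCL5 -0.89 ± 0.05. With spike-in scaling CCL5 had -0.19 and lost its call (limma adjusted p = 0.0520). CCL3 had -0.22 ± 0.05 (limma adjusted p = 0.00415), turned to 0.27 with spike-in scaling, and lost its call without reverse array 2 (adjusted p = 0.0563). CCL13 was not called, with ratios of -0.10, -0.07, 0.11 and 0.03. The call of CCL7 was lost with backgrounds as measured (-1.14, limma adjusted p = 0.0619), as was that of CCL3.

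CCR3 shares CCL5, CCL7, CCL8 and CCL13 with CCR1 and had 2 further tested ligands, which went opposite ways. CCL24, an eotaxin, was 1.22-fold lower (log2 fold change -0.29 ± 0.05, limma adjusted p = 0.000867), but had 0.13 with spike-in scaling. CCL28, a mucosal epithelial chemokine, was 1.24-fold higher (0.31 ± 0.05, limma adjusted p = 0.000326), with ratios of 0.14, 0.12, 0.55 and 0.43, and was the only chemokine gene called higher. Both calls were lost with backgrounds as measured (adjusted p = 0.176 and 0.0592). CCL26, the remaining eotaxin with a probe, was too dim to be tested.

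**Figure D4:**
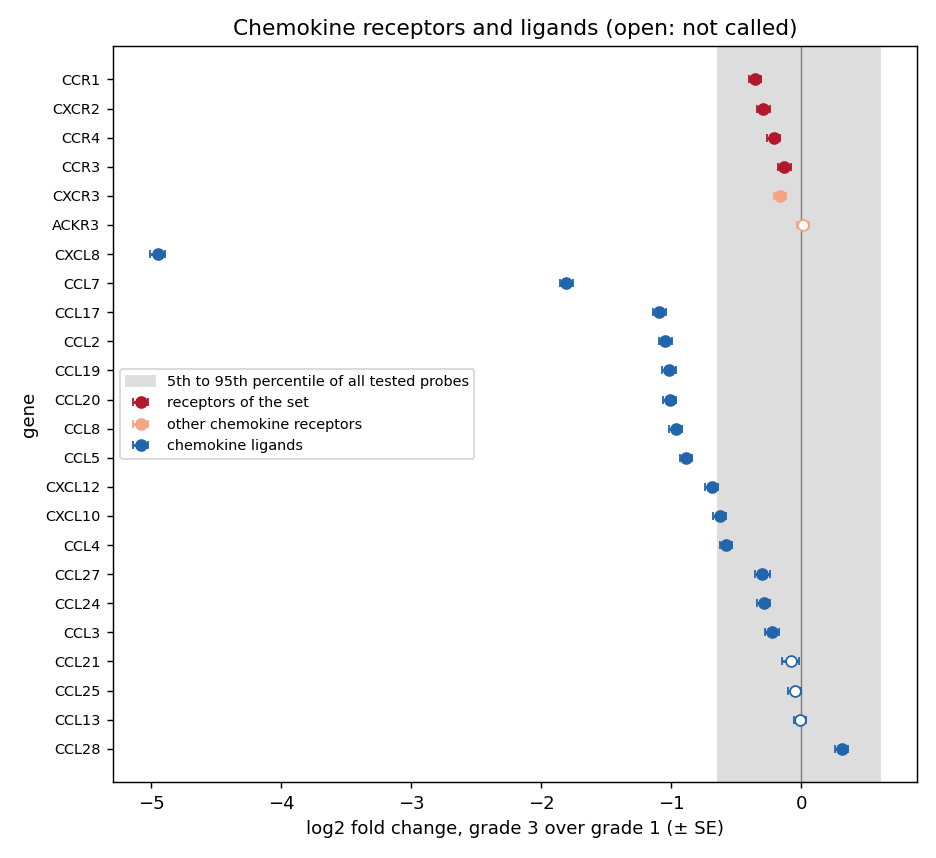
Fitted log2 fold change of grade 3 over grade 1 (horizontal axis, ± SE) for the receptors, 2 further chemokine receptors and 18 chemokine ligands, against the 5th to 95th percentile of all tested probes in grey. CXCL8 stands at -4.95 and CCL7 at -1.81, while the 4 receptors lie between -0.36 and -0.13. Spike-in scaling moves CXCR2, CCR4, CCR3 and CXCR3 and the ligands CCL3, CCL4, CCL24, CCL27 and CXCL10 above 0. The same holds for CCL13, CCL21 and CCL25, which had no call under the setting used in the text.

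Of 17 further chemokine receptors listed, 2 were tested. CXCR3, a receptor of activated T cells, had ratios of -0.22, -0.21, -0.10 and -0.12 and was 1.12-fold lower (limma adjusted p = 0.0117), with 0.31 under spike-in scaling. That call was lost without reverse array 1 (adjusted p = 0.0598), without reverse array 2 (0.0767) and with backgrounds as measured (0.325). ACKR3, a scavenging receptor for CXCL12, had 0.01 ± 0.05 (limma adjusted p = 0.853), but was called higher with median centring (0.25) and spike-in scaling (0.69). Of the 6 chemokine receptors reported, the 4 of the set and these 2, 5 were therefore called lower and ACKR3 was not. Among all named genes 46.1% were called lower. The median of the 6 receptors was -0.19, or 0.20 with spike-in scaling.

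Ligands listed for other receptors were mostly lower as well. Of 8 tested, CXCL12 apart, 6 were lower, against 46.1% of all named genes, and CCL21 and CCL25 had no call. CCL25 was called lower with processed signals (-0.21) and median centring (-0.15), and higher with spike-in scaling (0.30). CCL27 (-0.30) lost its call with median centring (-0.097) and with backgrounds as measured (-0.23). The median log2 fold change of the 8 was -0.60, or 0.06 with spike-in scaling. CCL2, the monocyte attractant and the brightest of them, had -1.04 ± 0.05, CCL19 -1.02 ± 0.05 and CCL20 -1.01 ± 0.05. CXCL12, a stromal chemokine, had -0.69 ± 0.05 (limma adjusted p = 2.15e-06), or -0.024 and no call with spike-in scaling. Of 45 listed genes of receptor signalling only 5 were tested, 3 of them lower and GNAI2 and GNB1 without a call. The median of the 5 was -0.21, or 0.46 with spike-in scaling. GNB1 had 4 probes, from -0.21 to -0.11, of which 2 were called lower though the brightest was not. GNAI2 had -0.097, or -0.19 without forward array 1. RAC1, a GTPase of cell motility, had -0.39 ± 0.06, NFKB1, an inflammatory transcription factor, -0.27 ± 0.05 and RHOA, another motility GTPase, -0.21 ± 0.05. With spike-in scaling all 3 turned above 0 (0.29, 0.42 and 0.46), and with median centring RHOA had 0.019 and NFKB1 -0.026, both without a call.

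Most tested markers of leukocytes were called lower in grade 3 as well, all but KIT and FOXP3, against 46.1% of all named genes. Summed levels below are the log2 of the summed intensities of a list's tested genes, given as the range over 4 arrays. All 3 tested of 11 neutrophil markers were lower, with a summed level of 13.8 to 14.0 in grade 3 and 15.4 to 15.5 in grade 1. That sum is nearly all S100A8, whose mean level was 13.88 and 15.44, against 8.59 and 10.21 for CAMP and 7.38 and 7.63 for ELANE. Among them CAMP, an antimicrobial peptide, had a log2 fold change of -1.62, S100A8, a calcium-binding protein, -1.56 and ELANE, neutrophil elastase, -0.25, the last turned to 0.21 with spike-in scaling. Both tested of 9 monocyte and macrophage markers were lower (12.5 to 12.8 against 13.8 to 14.0), FCGR1A by 2.59-fold and CD163 by 2.21-fold. The only tested eosinophil and basophil marker of 8 was FCER1A, the IgE receptor chain that mast cells also carry, 1.98-fold lower (9.97 to 10.5 against 11.0 to 11.3). Of 6 mast cell markers 3 were tested and 2 lower (11.0 to 11.3 against 11.5 to 11.6), MS4A2 by 1.96-fold and CMA1, the chymase, by 1.58-fold. The brighter MS4A2 probe had a log2 fold change of -0.97 and its other probe -0.69. KIT, the brightest marker, had -0.085 (limma adjusted p = 0.239), or -0.16 without forward array 1. With spike-in scaling CMA1 had -0.042 and lost its call, and KIT was called higher (0.58).

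Of 17 T and NK cell markers 8 were tested and 7 lower (about 10.3 on every array against 10.8 to 10.9). Of all named genes 46.1% were called lower. The median log2 fold change of the 8 was -0.28. CD8A had -0.36 (its other probe -0.66), IL2RA -0.20, CD4 -0.17 (-0.11 and no call with median centring) and PRF1 -0.14. Only 5 of the 8 were called lower without a dye term, without forward array 2, without reverse array 1 and without reverse array 2. KLRD1, an NK cell receptor, had -1.41, CTLA4 -0.77 and CD28 -0.47 (-0.13 and no call with spike-in scaling). FOXP3, the regulatory T cell factor, was not called and was well above background on 1 of 4 arrays in grade 3. It was called lower with processed signals (-0.82, limma adjusted p = 0.0264) and with median centring (-0.31, limma adjusted p = 0.00123). The 1 tested of 5 B cell markers, MS4A1, was 2.92-fold lower (6.78 to 7.17 against 8.23 to 8.59). Every other tested marker was well above background on all arrays in both grades, and 3 leukocyte lists (B cell, eosinophil and basophil, monocyte and macrophage) rest on 1 or 2 genes. With backgrounds as measured the neutrophil list had 2 members lower, the monocyte and macrophage list 2 and the T and NK cell and B cell lists none. With spike-in scaling the neutrophil list had 2 lower and 1 higher, and the T and NK cell list 2 of each. The part of these cells in the receptor differences was not tested.

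Markers of epithelial, fibroblast and endothelial cells did not move as one. Of 13 epithelial markers 5 were tested: TFF3 and MUC1 were 3.62-fold and 2.27-fold higher, PGR 1.49-fold lower (0.089 on the log2 scale with spike-in scaling), and CLDN3, the brightest, and ERBB2 were not called (13.2 to 13.5 against 13.0 to 13.2). Both were called higher with spike-in scaling (0.80 and 0.66) and with median centring (0.36 and 0.21), which gave 4 epithelial markers higher and 0 or 1 lower. Of 8 fibroblast markers 3 of 4 tested were lower (18.2 to 18.6 against 18.9 to 19.1): COL1A1 by 2.24-fold (4 probes, log2 fold changes from -1.16 to -0.40), COL1A2, the brightest, by 1.46-fold and DCN by 1.27-fold, the last pair turned above 0 with spike-in scaling, and DCN without a call under median centring (-0.12). COL1A2 had ratios of -0.06 and 0.32 on the forward arrays and -1.28 and -1.17 on the reverse arrays. Its call was lost without a dye term (limma adjusted p = 0.149). PDGFRB was not called (0.08), though its other probe was called lower (-0.16). The brighter PDGFRB probe was called higher with median centring (0.24) and spike-in scaling (0.69). Both tested of 7 endothelial markers were lower (15.1 to 15.4 against 15.4 to 15.7), KDR by 1.53-fold and VWF by 1.23-fold, and both turned above 0 with spike-in scaling, while VWF had no call under median centring (-0.073). Both grades thus held signal for epithelial, fibroblast, endothelial and leukocyte markers. The part of the makeup of the samples in the receptor values was not tested.

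The named genes with ratios most like each receptor were found by the Euclidean distance over the 4 ratios, among 921 genes. For CCR1 these were KDM5C, a histone demethylase gene (distance 0.096, log2 fold change -0.32), and CTSA, a lysosomal protease gene (0.097, -0.35). For CXCR2 they were MLANA, a melanocyte antigen gene (0.053, -0.27), and HTR2A, a serotonin receptor gene (0.071, -0.27). For CCR4 they were SSR1 (0.074, -0.18) and B4GALT4 (0.078, -0.21), and for CCR3 EIF2AK1, a translation kinase gene (0.044, -0.12), and CRYGD, a lens crystallin gene (0.056, -0.12). Between 2 and 5 genes lay within 0.1 of each receptor. No chemokine or listed leukocyte marker was among these 8 genes. All probes share the 4 arrays, so the distances describe these arrays only.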

How the data were processed

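Per the submitters' processing notes, the scans were read by Feature Extraction 10.7.3.1 (Agilent). The deposited median signals, local backgrounds and processed signals are intensity values, per the file headers, and the deposited LogRatio column and series value table hold log10 ratios. The value table differed from the scanner files by at most 4.99e-06 once the swapped arrays' signs were exchanged, which gives its direction as grade 3 against grade 1, and each column had a median of 0.

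Here limma 3.58.1 was run under R 4.3.3. Median signals were corrected with normexp (offset 50), outlier-marked backgrounds being replaced by their channel's median, and normalized by loess within arrays. Between 11 and 39 outlier spots per array were left out, and none was saturated. Median signals were 215 to 402 units per array and channel on backgrounds of 28 to 41, and the number of arrays limits the precision. Tested were 35411 probes for which all arrays passed the background test in grade 3 or in grade 1. The fit had grade and dye terms and eBayes (degrees of freedom: 2 residual, 7.50 prior). Its two-sided p-values were adjusted by Benjamini-Hochberg across the tested probes. Alternatives were other background corrections, scalings, filters and fits, and leaving out each array. Of 43603 probes 1648 (3.78%) were named by accession, and the brightest stood for its gene. On simulated data for the grade comparison over 35376 probes the test recovered 31 of 50 probes changed 1.25-fold, all 50 at 1.5-fold, 2-fold and 4-fold, and called 6 unchanged ones. The simulation left 35176 probes unchanged, whereas 61.6% of tested probes were called in the data. Its counts therefore do not give the recovery or the false calls of the real comparison.

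The genes, the lists and the replacement of marked backgrounds were chosen with earlier results of these data known. Named are all member probes, their measured ligands, other measured chemokine receptors, up to 3 called genes with the largest change and the brightest gene per other list, and the 2 nearest genes per receptor. Further listed genes are named where their call was weak, absent or changed with the setting. Some genes are not reported here and are in none of the listed counts.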

Additional observations from a re-analysis of the deposited data

Results flagged for a closer look

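In 58 genes, the 4 receptors and the listed ligands, receptors, signalling genes and markers, the 4 ratios were searched for an array far from the other 3. For 4 independent values chance marks about 1 in 20. No receptor of the set was marked, and 3 marker genes were. For the mast cell chymase gene CMA1, reverse array 2 had a log2 ratio of -0.56 against -0.70 to -0.69 on the others (gap over range 0.944). For CTLA4, a T cell checkpoint gene, forward array 2 had -0.57 against -0.84 to -0.82 (gap over range 0.907). For TFF3, an epithelial trefoil peptide gene, forward array 2 had 1.45 against 1.97 to 2.03 (gap over range 0.890).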

How the results depend on the processing

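Of 17 alternatives, 15 kept CCR1 called lower, 14 each CXCR2 and CCR4, and 8 CCR3, with log2 fold changes of -0.86 to -0.0040, -0.54 to 0.095, -0.39 to 0.23 and -0.47 to 0.17. The alternatives are not separate checks. Processed signals and the series value table gave the same values. Both other filters, kept outlier spots, no dye term and the replicate block left every receptor's log2 fold change unchanged. With backgrounds as measured the counts fell to 2328 higher and 4418 lower probes, 0 receptors lower (CCR1 -0.18, CCR3 -0.043, CCR4 -0.11, CXCR2 -0.14), 10 ligand and other receptor genes lower and 0 higher, and 13 marker genes lower. Leaving out forward array 2 under that setting, an alternative chosen after seeing the data, gave 1 receptor called lower, with CCR1 at -0.27, CXCR2 at -0.20, CCR4 at -0.16 and CCR3 at -0.037. Spike-in scaling gave 30184 higher and 1259 lower probes, so 96.0% of calls were higher in place of 50.5%. It left 1 receptor higher (CCR4, 0.23) and 0 lower, with CCR1 at -0.0040, CCR3 at 0.17 and CXCR2 at 0.095, and 8 ligand and receptor genes higher and 7 lower, 5 signalling genes higher and 0 lower, and 11 markers higher and 10 lower. Median centring made 63.9% of calls higher, with 2 ligand and receptor genes, 1 signalling gene and 5 markers higher and 1 signalling gene lower. CCR3 lost its call at an unchanged -0.13 without the filter, without a dye term and with the replicate block. Same-numbered arrays deviated with a correlation of -0.09 over 35376 probes, which cannot show whether equal numbers mark shared RNA. The block ended no other receptor's call (limma adjusted p at most 0.00337, CCR1, CXCR2 and CCR4). Leaving out 1 array alone gave CCR1 -0.37 to -0.35, CXCR2 -0.31 to -0.27, CCR4 -0.23 to -0.20 and CCR3 -0.16 to -0.096, with 3 or 4 receptors called lower.

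Beside the receptors, genes that turned sign under spike-in scaling were FOXP3 (0.13, no call there or under the setting used in the text), CCL13 (0.40), CCL21 (0.57), CCL24 (0.13), CCL25 (0.30), CCL27 (0.35), CCL3 (0.27), CCL4 (0.086), CXCL10 (0.041), CXCR3 (0.31), GNAI2 (0.59), GNB1 (0.58), NFKB1 (0.42), RAC1 (0.29), RHOA (0.46), CD4 (0.33), CD8A (0.15), IL2RA (0.086), PRF1 (0.30), ELANE (0.21), KIT (0.58), COL1A2 (0.11), DCN (0.32), KDR (0.073), VWF (0.37), PGR (0.089) and ERBB2 (0.66). With median centring FOXP3 was called lower (-0.31). Median centring turned ERBB2 (0.21), GNB1 (0.13) and RHOA (0.019), and also CCL21 (0.13), GNAI2 (0.15) and KIT (0.14), which had no call under either. Causes were not tested.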
